A study of Sus scrofa with 8 samples.

Results

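The heat shock protein 70 and 90 families, their J-domain partners and the ring-shaped chaperonins are the cell's protein folding machinery, and 43 of their genes were measured in back muscle of Korean native pigs and Yorkshire pigs. A gene was taken if its symbol started with HSPA, HSP90, HSPH or DNAJ, or was HSPD1, HSPE1, TCP1 or a numbered CCT gene. The 43 genes came from 6765 genes whose array probe sets carried exactly 1 symbol, and the brightest probe set of each gene, by mean log2 signal, stood for it. All 43 passed the limit on dim probe sets, as did 5331 genes in all.

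The study asked which genes differ in expression between the skeletal muscles of these breeds. The longissimus dorsi, which runs along the spine, was sampled between the seventh and ninth ribs of 4 Korean native pigs aged 7 months and 4 Yorkshire pigs aged 6 months, raised under one set of conditions per the labels. Total RNA of each was hybridised to 1 Affymetrix porcine array, and no treatment or genetic modification is named for either breed. Because age goes with breed, breed and age cannot be told apart below. Per the titles the 4 arrays of each breed are biological replicates 1 to 4, written here as Korean native pig 1 or Yorkshire 1, and p-values measure the spread between these samples.

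HSP70 proteins bind short greasy stretches of unfolded protein and release them in a cycle driven by ATP. J-domain (DNAJ) proteins deliver clients and start that cycle, while HSPH1, a relative of HSP70, resets it by exchanging the nucleotide. HSP90 acts later on nearly folded clients such as kinases, steroid receptors and, in muscle, myosin. The cytosolic chaperonin CCT folds actin and tubulin inside a closed ring, and HSPD1 with its lid HSPE1 does the same in the mitochondrial matrix. Under heat or other stress that unfolds proteins, heat shock factor 1 turns on a subset of these genes, whereas many others are made at all times.

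The genes were divided by role into 6 stress-induced cytosolic genes, 6 constitutive cytosolic HSP70 and HSP90 genes, 6 CCT subunits, 7 genes of the endoplasmic reticulum, 6 mitochondrial genes and 12 other J-domain genes. The inducible HSP70 gene of the pig carries the symbol HSP70.2, and the Sscrofa11.1 gene table gives HSPA1A and HSPA1B as its synonyms. Its symbol falls outside the rule, so it is no member, and its values are given as a comparison chosen after they were seen. HSP70 genes share long near-identical stretches, so signal of one may be read by the probe set of another, which was not tested.

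The arrays carried muscle RNA, and they differed in brightness and RNA quality. Of the 6 muscle fibre markers measured, among them CKM, TNNT3 and TTN, the lowest signal on any array was 15230, against 91.5 for the 95th percentile of the negative controls. Hybridisation controls were bright on replicates 1 and 3 of both breeds (13.42 to 13.70 log2 units) and dim on replicates 2 and 4 (12.50 to 12.81). The ratio of 3' to 5' signal in housekeeping transcripts, which grows as RNA degrades, was 3.33 log2 units on Korean native pig 1 and 3.03 on Yorkshire 3, against 0.87 to 1.73 on the other arrays. Neither measure differed detectably between breeds (exact permutation test over 70 labellings, two-sided, p = 0.714 for brightness and p = 1 for the 3' to 5' ratio; the smallest p this design allows is 0.0286).

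No chaperone gene passed the threshold between breeds. By limma, 0 of the 43 genes had an adjusted p under 0.05, where the background was 0% of all 5331 genes, and the lowest adjusted p of a member was 0.999. At an unadjusted p under 0.05 there was 1 member, DNAJA4, beside 3.43% of all genes. That count and its members moved with the arrays used. It was 4 within the bright arrays (DNAJA4, DNAJB4, DNAJB11 and DNAJC3) and 1 within the dim arrays, where the gene was DNAJB1 and not DNAJA4. It was 3 without Yorkshire 2 (DNAJA4, DNAJB4 and HSPH1), 3 without Yorkshire 4 (DNAJA4, DNAJC3 and HSP90AB1), and 2 without Korean native pig 2, Korean native pig 3, Korean native pig 4 or Yorkshire 1. With the arrays blocked by replicate number it was 2 (DNAJA4 and DNAJB1). Of all 14399 probe sets tested, 570 were at an unadjusted limma p under 0.05 in the main fit. That total was 397 within the bright and 527 within the dim arrays, and 668 with the replicate block. It was 570 without Yorkshire 2, 603 without Yorkshire 4 and 623 without Yorkshire 1. Without Korean native pig 2, 3 or 4 it was 673, 496 or 452. The signals of the breeds did not fall apart without overlap for any member (0 of 43, against 2.25% of all genes). The log2 change, Korean native pig minus Yorkshire on the scale of log2(signal + 32), was above 0 for 23 members and below 0 for 20 (above 0 for 49.6% of all genes), with a median of 0.00 (0.00159) beside -0.00 (-0.00269) over all genes. It was larger than 0.5 in either direction for 5 members, beside 9.36% of all genes.

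**Figure D1:**
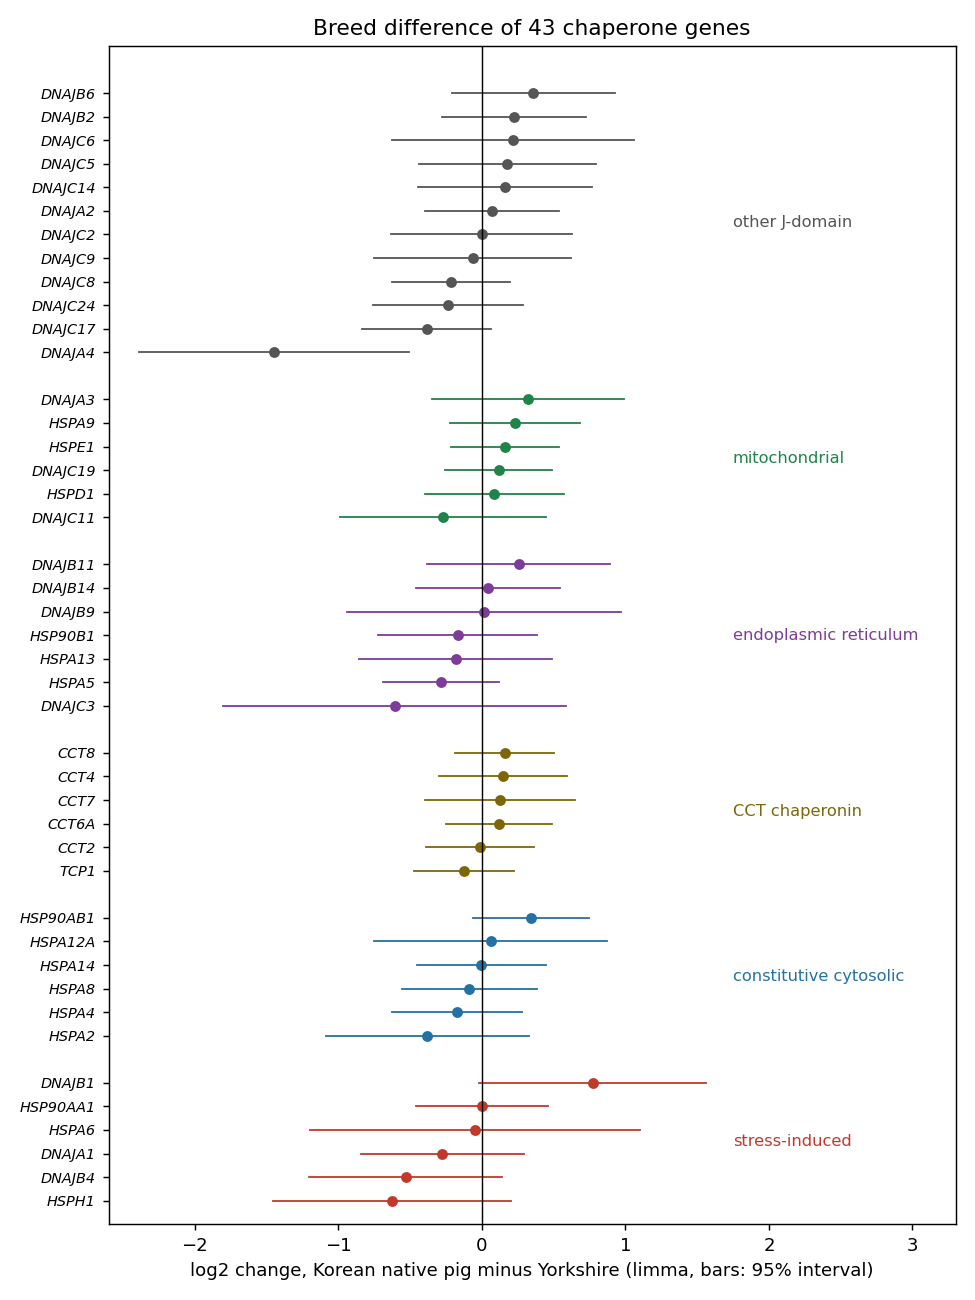
Log2 change of the 43 chaperone genes, Korean native pig minus Yorkshire (x axis, log2 units; points are limma estimates from 4 arrays per breed, bars their 95% intervals), grouped by role. The interval of DNAJA4 alone lies wholly to one side of 0, and no gene passed the adjusted threshold.

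Of the stress-induced genes, 3 of 6 had a log2 change beyond 0.5, in both directions, beside 9.36% of all genes, and none passed. The log2 changes of this class were also less precise, with a median SE of 0.34 beside 0.26 over all genes. The class had 2 members above 0 and 4 below, with a median log2 change of -0.16, or 0.0192 within the bright arrays and -0.47 without the arrays of high 3' to 5' ratio. The median also depended on which genes and probe sets were counted. It was -0.0230 without DNAJA1 and DNAJB4, -0.0230 with HSPD1 and HSPE1 counted as stress-induced, -0.0476 with HSP70.2 added and -0.0518 with the mean of all probe sets of each gene. The genes themselves differed from pig to pig, and different pigs stood out for different genes.

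DNAJB1, the J-domain partner that is induced most strongly with HSP70 under heat shock, had signals of 1545, 487, 443 and 769 in Korean native pigs 1 to 4. In Yorkshire pigs 1 to 4 they were 528, 412, 474 and 259. Korean native pigs 1 and 4 lay above every Yorkshire pig, while the other Korean native pigs lay within the Yorkshire range. The breed means were 811 ± 510 and 418 ± 116 (SD, n = 4), and the log2 change was 0.77 (SE 0.36, 95% interval -0.02 to 1.56; limma adjusted p = 0.999). Without Korean native pig 1, the array of highest 3' to 5' ratio, it was 0.41. Within the bright arrays it was 0.70 and within the dim arrays 0.84.

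HSPH1, the nucleotide exchange partner of HSP70, showed the opposite order. Its signals were 2498, 2194, 3467 and 3260 in Korean native pigs 1 to 4 and 9157, 2077, 3184 and 5836 in Yorkshire pigs 1 to 4. Yorkshire 1 and 4 stood above all Korean native pigs, and Yorkshire 2 was the lowest of the 8. This gave a log2 change of -0.62 (SE 0.38, 95% interval -1.45 to 0.21; limma adjusted p = 0.999), or -0.27 without Yorkshire 1 and -0.97 without Yorkshire 2. The within-brightness values were -0.87 for the bright and -0.38 for the dim arrays.

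DNAJB4, a heat-inducible J-domain protein abundant in muscle and heart, gave 7719, 6556, 7790 and 9148 in Korean native pigs 1 to 4. The Yorkshire signals were 23694, 7334, 9646 and 9402. Yorkshire 1 alone was far above the rest, and the other Yorkshire pigs were close to the Korean native pigs. Its log2 change of -0.53 (SE 0.31, 95% interval -1.20 to 0.14; limma adjusted p = 0.999) became -0.17 without Yorkshire 1. It was -0.96 within the bright arrays, which include Yorkshire 1, and -0.10 within the dim ones.

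DNAJA1, a major J-domain partner of cytosolic HSP70, had signals of 3518, 3313, 4541 and 2980 in Korean native pigs and 6132, 3025, 3159 and 5806 in Yorkshire pigs. As for HSPH1, Yorkshire 1 and 4 were the 2 highest arrays. The log2 change was -0.28 (SE 0.26). A second, dimmer probe set of DNAJA1 gave 0.16, and its signals over the 8 arrays did not follow those of the first (r = -0.16).

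HSPA6, an HSP70 gene that in most tissues is expressed only under severe stress, had the largest SD of the members. Its signals were 676, 199, 468 and 380 in Korean native pigs and 435, 178, 246 and 1379 in Yorkshire pigs. The highest array, Yorkshire 4, and the lowest, Yorkshire 2, were of the same breed and 7.73-fold apart. The log2 change was -0.05 (SE 0.53), with the opposite sign without Yorkshire 4 (0.51) or without Korean native pig 2 (0.25), and 0.73 within the bright and -0.82 within the dim arrays.

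HSP90AA1, the inducible cytosolic HSP90, had signals of 29012, 19730, 31130 and 19789 in Korean native pigs and 29313, 19202, 24099 and 25881 in Yorkshire pigs. The lowest array of each breed was replicate 2, and the breeds overlapped over most of their ranges. Between breeds the log2 change was 0.00 (0.00159) with an SE of 0.21 and a 95% interval of -0.46 to 0.46. The mean signal was 28388 on bright and 21150 on dim arrays, and the part of brightness in this difference was not tested. Its 4 further probe sets had log2 changes of 0.19, 0.28, 0.24 and -0.06.

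HSP70.2, the pig's inducible HSP70 outside the rule, differed widely between pigs of a breed while the breed means were close. It had signals of 27319, 10374, 18980 and 14617 in Korean native pigs and 27611, 7111, 17259 and 22003 in Yorkshire pigs. Korean native pig 1 and Yorkshire 1 were nearly equal at the top, and replicate 2 was the lowest of each breed. Its log2 change was 0.02 (SE 0.40), and its 2 further probe sets gave -0.23 and -0.30. The mean was 22792 on bright and 13526 on dim arrays.

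**Figure D2:**
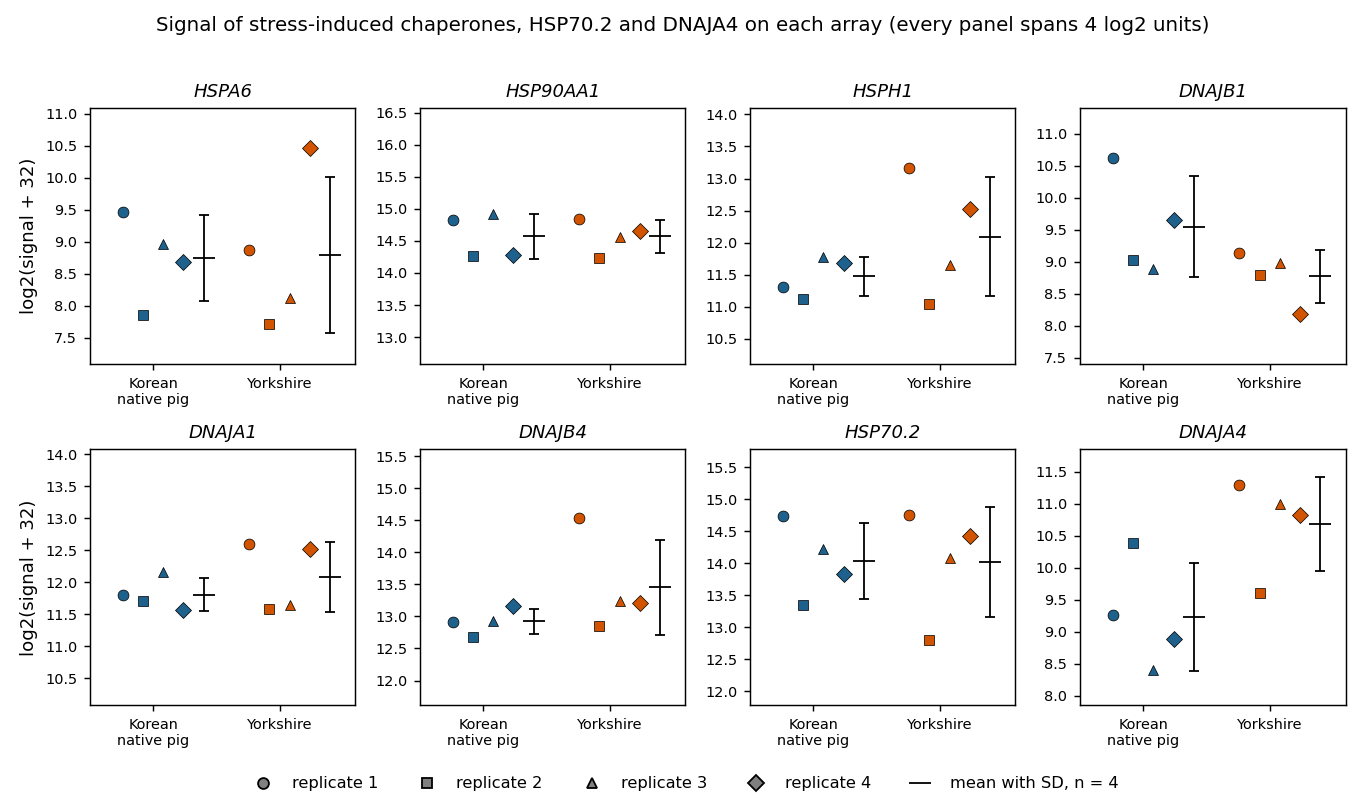
Signal of the 6 stress-induced members, of HSP70.2 and of DNAJA4 on each array, as log2(signal + 32) (y axis; every panel spans 4 log2 units). Marker shape gives the replicate number, and the dash with bars is the breed mean with its SD (n = 4). Yorkshire 1 (circle) is the highest array for HSPH1, DNAJA1 and DNAJB4, Korean native pig 1 for DNAJB1 and Yorkshire 4 (diamond) for HSPA6.

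The stress-induced genes had a wide spread between pigs of one breed and the CCT subunits a narrow one. The SD between animals within breeds, pooled over both breeds, had a median of 0.59 log2 units over the 6 stress-induced genes and 0.17 over the 6 CCT subunits. It was 0.29 for constitutive cytosolic, 0.42 for endoplasmic reticulum, 0.31 for mitochondrial and 0.40 for other J-domain genes, and 0.36 over all 5331 genes. Of the stress-induced genes 5 of 6 were above that overall median, beside 50% of all genes by definition, and 4 of 6 were above the 75th percentile of 0.50, beside 25% of all genes. HSPA6 (SD 0.98), HSPH1 (0.70), DNAJB1 (0.63) and DNAJB4 (0.54) were these 4, at the 97.8, 90.6, 87.1 and 79.7 percentile of all genes. DNAJA1 at 0.43 and HSP90AA1 at 0.31 were nearer the middle. Among the other 37 members 7 were above the 75th percentile. HSP70.2 had an SD of 0.73. These spreads are a description, and the classes were not tested against each other, since genes are not replicates. The percentiles were not matched for signal level. Mean signals were 495 for HSPA6, 615 for DNAJB1, 3959 for HSPH1 and 10161 for DNAJB4, and 3658 to 8505 for the CCT subunits. Array brightness and RNA quality remain in the SD, and their part was not tested.

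**Figure D3:**
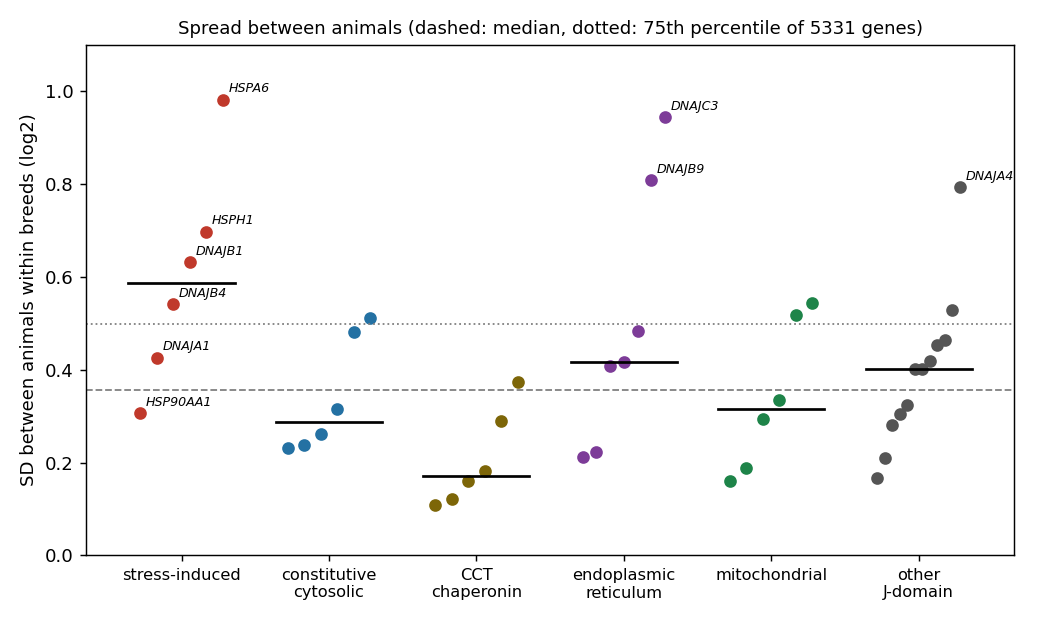
SD of log2(signal + 32) between animals within breeds (y axis, pooled over 2 breeds of 4 arrays) for each chaperone gene by class. Black lines are class medians, and grey lines are the median (0.36, dashed) and 75th percentile (0.50, dotted) of all 5331 genes. Stress-induced genes reach 0.98 and CCT subunits stay at or below 0.37.

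Among the stress-induced genes HSPH1 varied across the pigs with DNAJB4 and with DNAJA1. Over the 8 arrays HSPH1 and DNAJB4 had a Pearson r of 0.88 (exact permutation p = 0.00315, adjusted p = 0.0472 over the 15 pairs of the class) and a Spearman rho of 0.81 (exact permutation p = 0.0218, adjusted p = 0.172). HSPH1 and DNAJA1 had an r of 0.88 (exact permutation p = 0.0063, adjusted p = 0.0472) and a rho of 0.69 (exact permutation p = 0.0694, adjusted p = 0.178). These were the 2 pairs of 15 past the adjusted threshold by Pearson, and 0 pairs passed by Spearman. At an unadjusted exact permutation p under 0.05 by Spearman were 4 pairs, HSPH1 with DNAJB4 and HSP90AA1 with DNAJA1, HSPA6 and HSPH1. Adjusted over the 147 pairs within all classes, the exact permutation p by Pearson was 0.154 for HSPH1 with DNAJB4 and with DNAJA1. By Spearman it was 0.491 and 0.531, so neither passed over that larger family.

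Both relations leaned on a few pigs. Without the 2 arrays farthest from the median of DNAJB4, Yorkshire 1 and Korean native pig 2, the first r was 0.68. Without the 2 farthest for DNAJA1, Yorkshire 1 and 4, the second was 0.40. With the 2 farthest arrays of each pair left out, 0 of the 15 pairs passed, so neither call held. With 1 array left out the number of pairs past the threshold fell to 1 without Korean native pig 3, Korean native pig 4 or Yorkshire 3. It fell to 0 without Korean native pig 1, Korean native pig 2, Yorkshire 1, Yorkshire 2 or Yorkshire 4. With values centred within each breed the r were 0.85 and 0.87, and with values centred within the bright and the dim arrays 0.88 and 0.87. The second DNAJA1 probe set did not follow the one used (r = -0.16). The relation of HSPH1 with DNAJA1 thus rests on the probe set chosen.

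The median r over the 15 stress-induced pairs was 0.55, beside 0.01 over the 14207115 pairs of all genes tested. It was 0.07 for constitutive, 0.09 for CCT, -0.09 for endoplasmic reticulum, 0.03 for mitochondrial and -0.00 (-0.000224) for other J-domain pairs. An r over 0.7 was reached by 2 of the 15 stress-induced pairs, beside 3.7% of all gene pairs. The CCT class had as many, 2 of 15. Constitutive genes had 0 of 15, endoplasmic reticulum 1 of 21, mitochondrial 1 of 15 and other J-domain genes 4 of 66. DNAJB1 was in all 4 stress-induced pairs with a negative r, the lowest being -0.39 with DNAJA1. Without the 2 arrays farthest from the median of each pair's first gene the median r was 0.24. Arrays share hybridisation brightness and RNA quality, which touch all pairs on them. The class mean, as the deviation of each gene from its own mean in log2 units, was 0.25, 0.04, 0.62 and -0.20 on the bright arrays (Korean native pigs 1 and 3, Yorkshire 1 and 3). On the dim arrays (Korean native pigs 2 and 4, Yorkshire 2 and 4) it was -0.46, -0.07, -0.53 and 0.35. The median r after centring within bright and dim arrays was 0.54.

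Among the 6 stress-induced members, by the probe sets used, HSP70.2 had its highest r with HSP90AA1. The r was 0.85 (exact permutation p = 0.00496, adjusted p = 0.0298 over these 6 pairs) and the rho 0.86 (exact permutation p = 0.0107, adjusted p = 0.0436). Without Yorkshire 2 and Korean native pig 2, the arrays farthest from the HSP70.2 median, r was 0.74, and centred within breeds it was 0.85. Centred within the bright and the dim arrays r was 0.72, and with quantile normalisation 0.78. HSP70.2 was chosen after its values were seen, and its pairs were not adjusted over the 147 pairs within classes. Among those 147, CCT4 with CCT7 had an exact permutation p of 0.00499 by Pearson and an adjusted p of 0.154. The 4 further HSP90AA1 probe sets correlated with the one used at r = -0.37, 0.39, 0.77 and -0.23. Their r with HSP70.2 was not computed, so the relation of HSP70.2 with HSP90AA1 is given only for the probe set used. With HSPA6 the r was 0.74, with HSPH1 0.67, with DNAJA1 0.65, with DNAJB4 0.55 and with DNAJB1 0.30, and 0 of these 5 passed by Pearson. By Spearman HSPA6 and DNAJA1 also passed, each with a rho of 0.81 (exact permutation p = 0.0218, adjusted p = 0.0436). Without Yorkshire 2 and Korean native pig 2 the Pearson r of HSP70.2 was 0.44 with HSPA6 and 0.61 with DNAJA1. The second probe set of DNAJA1 had an r of -0.16 with the one used. Whether the HSPA6 and HSP70.2 probe sets read each other's signal was not tested.

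**Figure D4:**
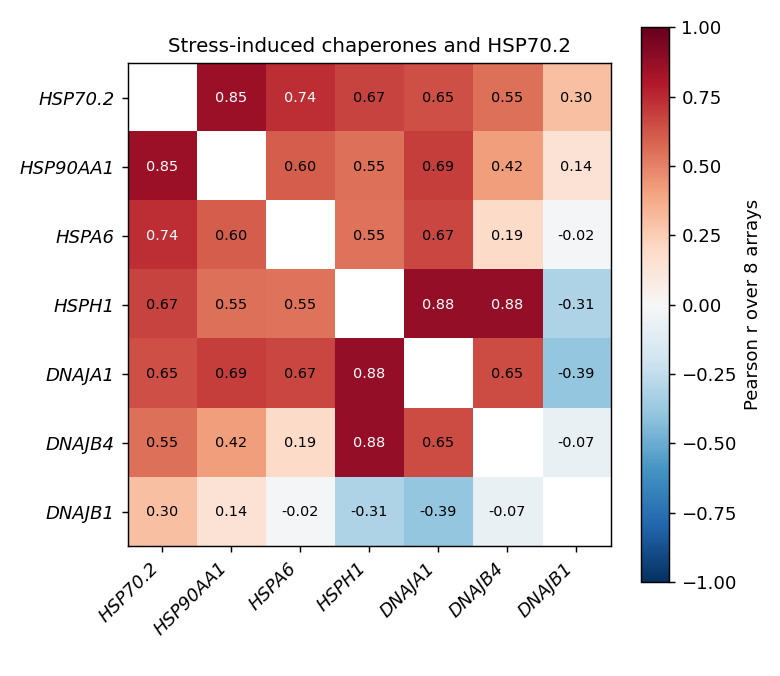
Pearson r over the 8 arrays (colour and printed value) for pairs of the 6 stress-induced chaperones and HSP70.2. The 2 values of 0.88 join HSPH1 with DNAJA1 and DNAJB4, and all negative values involve DNAJB1.

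The constitutive cytosolic genes had log2 changes between -0.38 and 0.34. HSPA8, the everyday HSP70 of the cytosol, had signals of 20692 to 34888 in Korean native pigs and 23114 to 36058 in Yorkshire pigs, a log2 change of -0.09 (SE 0.21, 95% interval -0.55 to 0.38). HSPA4, another exchange partner of HSP70, was at -0.17 (0.0380 within the bright arrays) with a second probe set at -0.52, and HSPA2, best known from testis, at -0.38. The class had 2 genes above 0 and 4 below, and 0 of 6 beyond 0.5.

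HSP90AB1, the constitutive HSP90, had 1 Yorkshire pig apart from the other Yorkshire pigs. Its signals were 11378, 10849, 10598 and 10828 in Korean native pigs and 7700, 7442, 7883 and 12024 in Yorkshire pigs. All Korean native pigs lay above 3 of the Yorkshire pigs and below Yorkshire 4. Its log2 change was 0.34 (SE 0.19, 95% interval -0.06 to 0.75; limma adjusted p = 0.999), or 0.51 without Yorkshire 4.

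The CCT subunits had the smallest median SD of the 6 classes. Of the 6 measured, CCT2, CCT4, CCT6A, CCT7, CCT8 and TCP1, 4 were above 0 and 2 below, all between -0.12 and 0.16, with a median of 0.12. CCT8 varied 1.33-fold from the lowest to the highest array and TCP1 slightly less, and their SDs of 0.11 and 0.12 were at the 0.844 and 1.56 percentile of all genes. For CCT8 the 95% interval of the log2 change was -0.19 to 0.50, and for TCP1 it was -0.47 to 0.23. CCT4 and CCT7 varied most, 1.89-fold and 2.00-fold, each lowest on Yorkshire 3, an array of high 3' to 5' ratio. The part of RNA quality in this was not tested. The class median was -0.02 without Yorkshire 3.

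Genes of the endoplasmic reticulum, which fold secreted and membrane proteins, had 3 members above 0 and 4 below, with a median of -0.17. HSPA5 (BiP), the HSP70 of this compartment, had signals of 4039, 3966, 3507 and 3868 in Korean native pigs and 6345, 4170, 4545 and 3979 in Yorkshire pigs. Every Yorkshire pig but Yorkshire 4 lay above all Korean native pigs, and the log2 change was -0.28 (SE 0.19, 95% interval -0.69 to 0.12; limma adjusted p = 0.999). HSP90B1 (GRP94), the HSP90 of the compartment, was at -0.17, with a second probe set at -0.24.

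The J-domain partners of the endoplasmic reticulum were uneven. DNAJB11, a partner of BiP, was at 0.26 (95% interval -0.38 to 0.90), but at -0.41 within the dim arrays and -0.00461 without the arrays of high 3' to 5' ratio. DNAJB9, a target of the unfolded protein response, was at 0.02 (-0.53 within the bright and 0.56 within the dim arrays) with an SD of 0.81 and signals from 462 on Korean native pig 1 to 2190 on Korean native pig 2. DNAJC3, which restrains the kinase PERK, was at -0.61 (SE 0.55), or 0.43 within the dim arrays, but its signal on Korean native pig 1 and Yorkshire 4 was below the 91.5 of the negative controls. A second DNAJC3 probe set was at 0.14 and ran against the first (r = -0.55), so the value of this gene depends on the probe set. HSPA5 and HSPA13, a further HSP70 of this compartment, both had their highest signal on Yorkshire 1, at 6345 and 764.

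The mitochondrial chaperones had 5 of 6 log2 changes above 0, with a median of 0.14, where 49.6% of all genes were above 0. HSPA9 (mortalin), the HSP70 that pulls proteins into the matrix, was at 0.23 (SE 0.21), HSPD1 (HSP60) at 0.09, its lid HSPE1 at 0.16, DNAJA3 at 0.32 and DNAJC19 at 0.12. DNAJC11 was at -0.27, or 0.15 within the bright arrays. None passed the test.

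HSPA9 and HSPD1, which act one after the other on imported proteins, correlated across the pigs for the probe sets used. HSPA9 signals were 12999, 9399, 10703 and 9384 in Korean native pigs and 9258, 6893, 12352 and 8192 in Yorkshire pigs. For HSPD1 they were 14367, 7956, 10451 and 8659, and 10358, 7467, 11834 and 8882. Korean native pig 1 and Yorkshire 3 were the 2 highest arrays for both genes, and these are the arrays of high 3' to 5' ratio. The r was 0.89 (exact permutation p = 0.00375) and the rho 0.79 (exact permutation p = 0.0279). Of the 2 further HSPA9 probe sets, 1 followed the one used (r = 0.66) and the other ran against it (r = -0.76). Their r with HSPD1 was not computed, so the relation is given only for the probe set used. The pair was picked after its values were seen as the highest r among 147 pairs within classes, and over those 147 the adjusted p was 0.154 by Pearson and 0.491 by Spearman. Without Korean native pig 1 and Yorkshire 2 r was 0.75, and centred within bright and dim arrays it was 0.72. HSPA9 averaged 11328 on bright and 8467 on dim arrays and HSPD1 11753 and 8241. The part of brightness and RNA quality in the relation was not tested. By Pearson 0 of the 147 pairs passed and 12 were at an unadjusted exact permutation p under 0.05. By Spearman 0 passed, with 12 at an unadjusted exact permutation p under 0.05.

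DNAJA4, a cytosolic J-domain protein close in sequence to DNAJA1, had the largest breed difference of the 43 genes. Its signals were 584, 1304, 306 and 441 in Korean native pigs and 2488, 752, 2019 and 1773 in Yorkshire pigs. The breeds overlapped through Korean native pig 2, which lay above Yorkshire 2. The mean signals were 659 ± 445 and 1758 ± 733 (SD, n = 4). On the scale of log2(signal + 32) the change was -1.45 (SE 0.43, 95% interval -2.39 to -0.51), which is 2.73-fold on that scale. Its limma p was 0.00576 and its adjusted p = 0.999, so it did not pass. With 1 array left out the log2 change was between -1.83 and -1.17. Within the bright arrays it was -2.32 and within the dim arrays, which include both replicates 2, -0.58. The second DNAJA4 probe set did not pass the limit on dim signals.

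The 11 further genes of the other J-domain class, which took every DNAJ gene not listed in another class, were between -0.38 and 0.36. DNAJC17 had the smallest p among them, at -0.38 (SE 0.21), with 252 to 375 in Korean native pigs and 368 to 434 in Yorkshire pigs, so the breeds overlapped only by Korean native pig 3 and Yorkshire 3. DNAJB6, which is found at the Z-disc of muscle and is mutated in a limb-girdle muscular dystrophy, was at 0.36, but its 3 further probe sets were at -0.05, -0.05 and -0.15. DNAJC8, associated with the spliceosome, was at -0.22. DNAJB2, DNAJC2, DNAJC5, DNAJC6, DNAJC9, DNAJC14, DNAJC24 and DNAJA2 made up the rest, with 6 above 0 and 2 below.

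**Figure D5:**
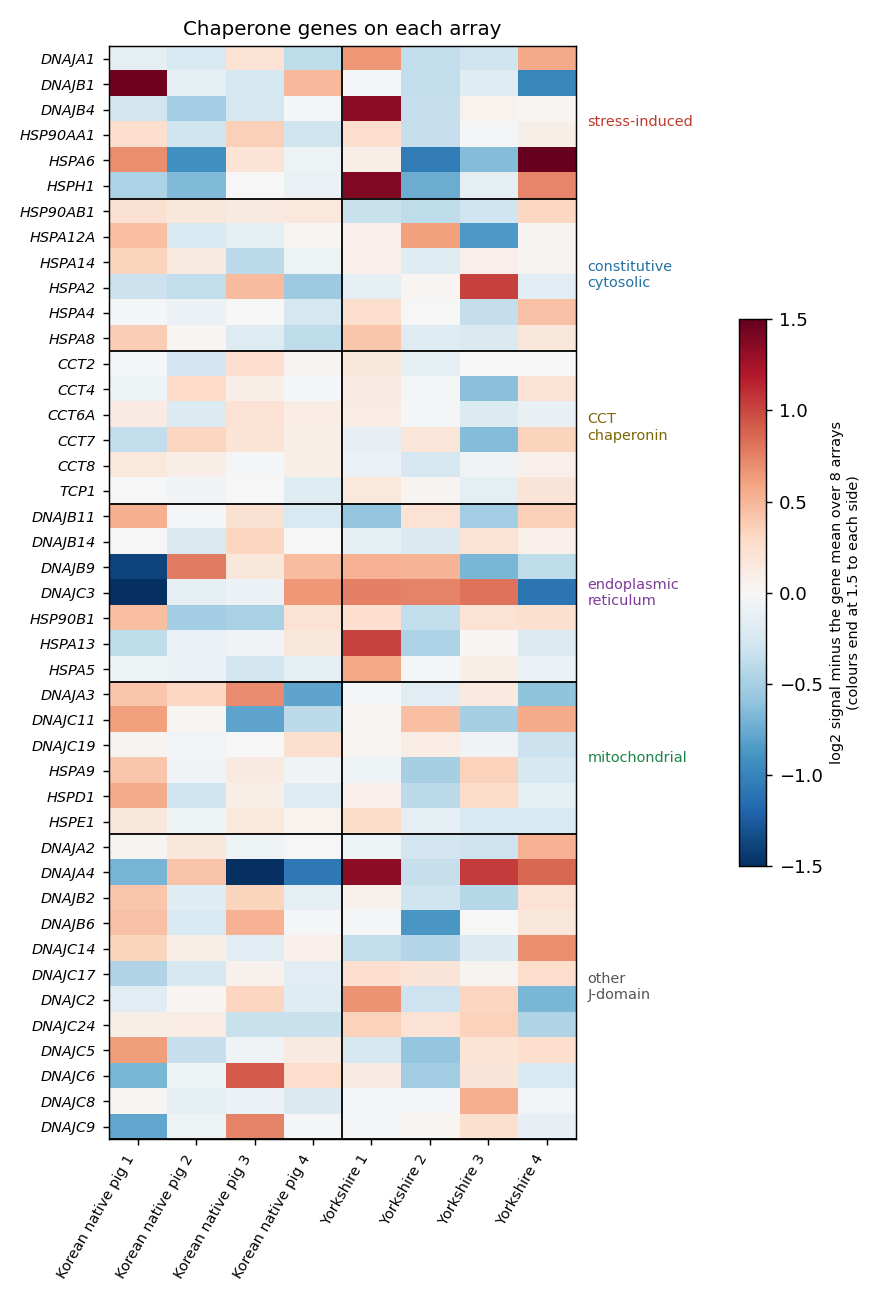
Log2(signal + 32) of each chaperone gene (rows, by class) on each array (columns) minus the gene's mean over the 8 arrays (colour, ending at 1.5 to each side). Stress-induced rows show dark cells on single arrays, among them Yorkshire 1 for HSPH1 and DNAJB4 and Korean native pig 1 for DNAJB1, while CCT rows are pale apart from CCT4 and CCT7 on Yorkshire 3.

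Of the members, 18 had more than 1 probe set, 72 in all. Of the 29 further probe sets 22 passed the limit on dim signals, and 16 of these had a log2 change of the same sign as the one used. HSPH1, DNAJB1 and DNAJB4 rest on a single probe set each.

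Partners and regulators of these chaperones were taken from a list of 61 genes, of which 43 were measured and 42 tested. None passed, with 22 above 0, 20 below and a median of 0.01. At an unadjusted limma p under 0.05 were 2 of 42, beside 3.43% of all genes, and the breeds did not overlap for 1 of 42, beside 2.25%. That gene was ST13 (Hip), a co-chaperone that steadies HSP70 on its client. Its signals were 6031, 6188, 7524 and 6952 in Korean native pigs and 4980, 5554, 4274 and 5491 in Yorkshire pigs. For ST13 the log2 change was 0.39 (SE 0.17; limma adjusted p = 0.999), at 0.54 within the bright and 0.25 within the dim arrays.

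UNC45B, the muscle co-chaperone that works with HSP90 to fold myosin, had 5163, 3432, 4487 and 4152 in Korean native pigs against 1740, 2726, 2223 and 4234 in Yorkshire pigs. Yorkshire 4 lay within the Korean native range and the other Yorkshire pigs below it. For UNC45B the log2 change was 0.71 (SE 0.26; limma adjusted p = 0.999), at 1.28 within the bright and 0.15 within the dim arrays. As for HSP90AB1, Yorkshire 4 was the Yorkshire pig nearest to the Korean native pigs.

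GRPEL1, the nucleotide exchange factor of mitochondrial HSPA9, was at 0.49, and the heat shock factor HSF2 at -0.59. TIMM44, which tethers HSPA9 to the import pore, was at -0.41 and BAG5 at -0.39. None of these 4 passed.

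Of the markers of other cells in the muscle, 0 passed the same test. At an unadjusted limma p under 0.05 was 1 of the 6 endothelial markers tested, EGFL7, and no marker of the other lists, beside 3.43% of all genes. The summed signal of 5 adipocyte markers was 5304 to 11425 in Korean native pigs and 6806 to 13412 in Yorkshire pigs, with 4 of 5 log2 changes below 0. That of 5 fibroblast markers was 9762 to 16799 and 12832 to 22630, with 5 of 5 below 0. For 7 endothelial markers it was 3984 to 4831 and 4091 to 5987, for 5 macrophage markers 557 to 4079 and 845 to 2500, and for 3 red cell markers 928 to 1209 and 984 to 1163. Of the markers tested, 3 of 6 endothelial, 1 of 4 macrophage and 1 of 3 red cell log2 changes were below 0. Muscle fibre markers had 5 of 6 below 0, with a median of -0.29. Among all genes 49.6% were above 0. The defining markers ADIPOQ and LEP were below the 91.5 of the negative controls on 1 and 3 arrays, KDR on 5 and CD14 on 4. In pieces of whole muscle, fewer cells of a type and less RNA per cell cannot be told apart, and the part of cell makeup in the chaperone values was not tested.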

How the data were processed

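Each array had 1 deposited intensity value per probe set, on a linear scale. The authors had scaled them, since the mean without the highest and lowest 2% was 499.8 on every array. Per the submitters' processing notes GCOS 1.3 was used, and how probes were summarised was not given in the sources used here. The table held 24123 probe sets and 0 further value columns. Gene names came from GEO's platform annotation. The Sscrofa11.1 gene table held the gene numbers of 42 members, with 42 symbols unchanged.

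Values were transformed to log2(signal + 32), which understates the changes of dim genes. Control probe sets (124) and the dimmest 40% of the rest by mean were left out, leaving 14399. Breeds were compared over these, on all 8 arrays and without covariates, by lmFit and eBayes (intensity trend) of limma 3.58.1 under R 4.3.3, with Benjamini-Hochberg adjustment over all of them and a threshold of 0.05. Precision is limited by having 4 arrays per breed, with a median SE of 0.28 log2 units over probe sets. The scripts were tested on simulated data. Pair correlations used exact two-sided permutation over 8 arrays.

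The rule for named genes took all stress-induced members, up to 4 of smallest p per other class with any that passed or did not overlap, the 3 of largest SD, 7 core chaperones whatever their values, and up to 6 pathway genes of smallest p. Other genes were named after their values were seen. The members, classes and lists were chosen with earlier results of these data known. Alternatives changed the pseudocount, filter, normalisation, variance model, probe set rule and arrays used. The further probe sets of a gene and the values with HSP70.2 were added after seeing the data.

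Replicate numbers were not taken as pairs of arrays. Brightness of the hybridisation controls went with the number in both breeds, and replicates 2, 3 and 4 but not 1 correlated best with their own number. No sequence was printed, and no positions, because the files name no genome build.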

Additional observations from a re-analysis of the deposited data

Results flagged for a closer look

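In 8 of 86 groups of 4 arrays (43 genes in 2 breeds), the highest or lowest array stood apart, its gap to the next on the log2 scale, as a share of the group's range, being above Dixon's 95% critical value for 4 samples. The critical value is set for about 1 in 20 groups by chance, and all 8 were in Yorkshire pigs. The share of such groups over all genes, in either breed, was not computed. The count and its breed therefore cannot be read as particular to the chaperones. On Yorkshire 4, HSP90AB1 was high at 12024 (the other arrays 7442 to 7883), DNAJC3 low at 40.8 (229 to 243), below the 91.5 of the negative controls, and DNAJC24 low at 382 (624 to 689). On Yorkshire 3, DNAJC8 was high at 2327 (1557 to 1574) and HSPA2 high at 629 (257 to 297). On Yorkshire 2, HSP90B1 was low at 1823 (2732 to 2816) and HSPA14 low at 721 (846 to 871). On Yorkshire 1, HSPE1 was high at 24542 (17199 to 18260).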

How the results depend on the processing

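Under each alternative run, 0 of the 43 chaperone genes passed. With the replicate block the smallest limma adjusted p of a member was 0.976 and 0 members passed. Same-numbered arrays correlated at -0.04, 0.31, 0.10 and 0.05 in their deviations. The numbers were not taken as pairs, though brightness of the hybridisation controls went with the number in both breeds. Whether same-numbered arrays were handled together was not tested. The block moved the probe sets past the threshold from 0 to 1, and replicates 2, 3 and 4 but not 1 correlated best with their own number. Leave-one-out medians of the log2 change ranged from -0.42 to -0.05 for stress-induced, -0.15 to 0.04 for constitutive, -0.0238 to 0.16 for CCT, -0.32 to 0.00 (0.00118) for endoplasmic reticulum, 0.08 to 0.20 for mitochondrial and -0.08 to 0.07 for other J-domain genes. Within the dim arrays the constitutive median was -0.27 and the CCT median -0.00947, and within the bright arrays the endoplasmic reticulum median was -0.51. The median r of stress-induced pairs was 0.24 without the 2 farthest arrays and 0.44 to 0.60 with 1 array left out. The pairs past the threshold, 2 in the main setting, were 1 with arrays centred on their median, 0 without the 2 farthest arrays and 0 to 1 with 1 array left out.

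Several single genes changed sign, some of them with sizeable values on both sides of 0, such as DNAJC3 and DNAJB11. With arrays centred on their median HSP90AA1 was at -0.0125, and with quantile normalisation DNAJB9 was at -0.00 (-0.00284). Within the dim arrays HSP90AA1 was at -0.17, DNAJC3 at 0.43 and DNAJB11 at -0.41. Within the bright arrays HSPA6 was at 0.73, HSPA4 at 0.0380, DNAJC11 at 0.15 and DNAJB9 at -0.53. Without the arrays of high 3' to 5' ratio HSP90AA1 was at -0.0870, DNAJC3 at 0.00 (0.00466) and DNAJB11 at -0.00 (-0.00461). With 1 array left out the ranges were -0.12 to 0.10 for HSP90AA1, -0.41 to 0.51 for HSPA6, -0.22 to 0.0396 for HSPA8, -0.0338 to 0.25 for CCT4, -0.0831 to 0.20 for HSPD1 and -0.24 to 0.48 for DNAJB9. The cause was not tested. Signals near 91.5 limit DNAJC3, DNAJC6 and HSPA12A.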
